A study of Bos taurus with 8 samples.

Results

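The interferon gamma receptor has the ligand-binding chain IFNGR1 and the signalling chain IFNGR2, the type I interferon receptor has the chains IFNAR1 and IFNAR2, and tumour necrosis factor (TNF) binds TNFRSF1A and TNFRSF1B. Their transcripts were measured in bovine blastocysts that had met high or low glucose during cleavage. All 6 genes were picked by symbol in the array annotation. They were chosen by values already known from these arrays, the log2 ratios of glucose over control, so those ratios are given as a description without a test. The symbols matched 8 probes, 3 for IFNAR1 and 1 for each other gene, among 32935 probes tested and 12589 named genes. All 8 passed the filter on low values, which asks that either channel exceed the array's limit (mean plus 2 SD of its negative control spots) on 4 or more of the 8 arrays.

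Interferons are antiviral cytokines. In ruminants the trophectoderm itself secretes one of them, interferon tau, which binds the type I receptor and tells the mother of the pregnancy. Ligand on either interferon receptor activates Janus kinases (JAK1 with TYK2 for type I, JAK1 with JAK2 for gamma), which phosphorylate STAT proteins. TNFRSF1A carries a death domain and, through the adaptor TRADD, leads to NF-kB or to caspase 8. TNFRSF1B has no death domain and is known mainly from immune and endothelial cells.

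The embryos came from slaughterhouse ovaries of dairy cattle of any breed, matured, fertilised and cultured in vitro with serum albumin from Sigma. Glucose embryos were kept in 5 mM glucose and control embryos in 0.2 mM from day 0 to day 3. Both were then cultured in the usual medium and collected as blastocysts at 180 h after fertilisation, in 4 pools of 10 embryos per group. Each of 8 arrays compared a glucose pool with a control pool, and each of the 4 pairs of pools was measured on 2 arrays with the dyes exchanged. The assignment of arrays to pairs by array number is inferred. Ratios below are log2(glucose/control), mean over the 4 pairs with the SD between them. In pooled embryos, fewer cells of a type and less RNA per cell cannot be told apart.

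The share of probes over that limit was 66.2% to 82.2%, depending on the array. Probes of POU5F1, KRT8, KRT18 and interferon tau (IFNT), genes of blastocyst lineages, exceeded it in all 8 glucose and all 8 control channels, whereas CDX2 did so in 4 and 6 and SOX17 in 2 and 4. On the array of pair 1 with glucose in Cy3, the Cy3 limit was 1318, so few probes passed in that channel. The negative control spots there had a Cy3 median of only 133, but a maximum of 7172 and an SD of 569. By limma with Benjamini-Hochberg adjustment, 0% of the 32935 probes passed 0.05 (0 probes), with a lowest adjusted p of 0.977. The number below 0.05 without adjustment was 780. The number of arrays limits the precision of every ratio.

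IFNGR2, the chain that brings JAK2 to the interferon gamma receptor, was brighter in the glucose pool of every pair. Its ratios were 1.12, 0.74, 0.60 and 0.22 in pairs 1 to 4, with a mean of 0.67 ± 0.37 (SD, n = 4), or 1.59-fold. The size differed between the pairs, from a clear excess in pair 1 to a small one in pair 4. All 8 arrays lay above 0. The mean was 0.65 over the 4 arrays with glucose in Cy5 and 0.69 over the 4 with glucose in Cy3, and the 2 arrays of a pair differed by 0.11 to 0.23. Before normalization the glucose channel was brighter on 7 of 8 arrays. The exception was the pair 4 array with glucose in Cy5, where the control channel read 416 and the glucose channel 364, on an array whose median probe read 268 in Cy3 and 161 in Cy5.

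On the normalised log2 scale, where negative control spots had a median of 6.72 in glucose and 6.73 in control channels, IFNGR2 had levels of 8.76, 8.42, 9.25 and 8.46 in the glucose pools of pairs 1 to 4. Its levels in the control pools were 7.64, 7.68, 8.66 and 8.24. The groups overlap, since the control pool of pair 3 lay above 2 of the glucose pools, and the difference appears within each pair. The probe exceeded the negative controls in 7 of 8 glucose channels and 8 of 8 control channels. The missing glucose channel was that of pair 1 with the limit of 1318, where the probe read 533.

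The partner chain IFNGR1, which binds interferon gamma, differed little. Its ratios were 0.05, 0.31, 0.03 and 0.08, with a mean of 0.12 ± 0.13, or 1.09-fold. Every pair lay above 0, but 2 of the 8 single arrays lay below, and in pairs 1, 3 and 4 the ratio was under 0.10. Before normalization the glucose channel was brighter on 7 of 8 arrays for IFNGR1 too, so that count does not set IFNGR2 apart from it. Its levels ran from 11.4 to 11.7 in glucose pools and from 11.0 to 11.7 in control pools, and the groups overlap. Its signal exceeded the negative controls in 8 of 8 glucose and 8 of 8 control channels.

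**Figure D1:**
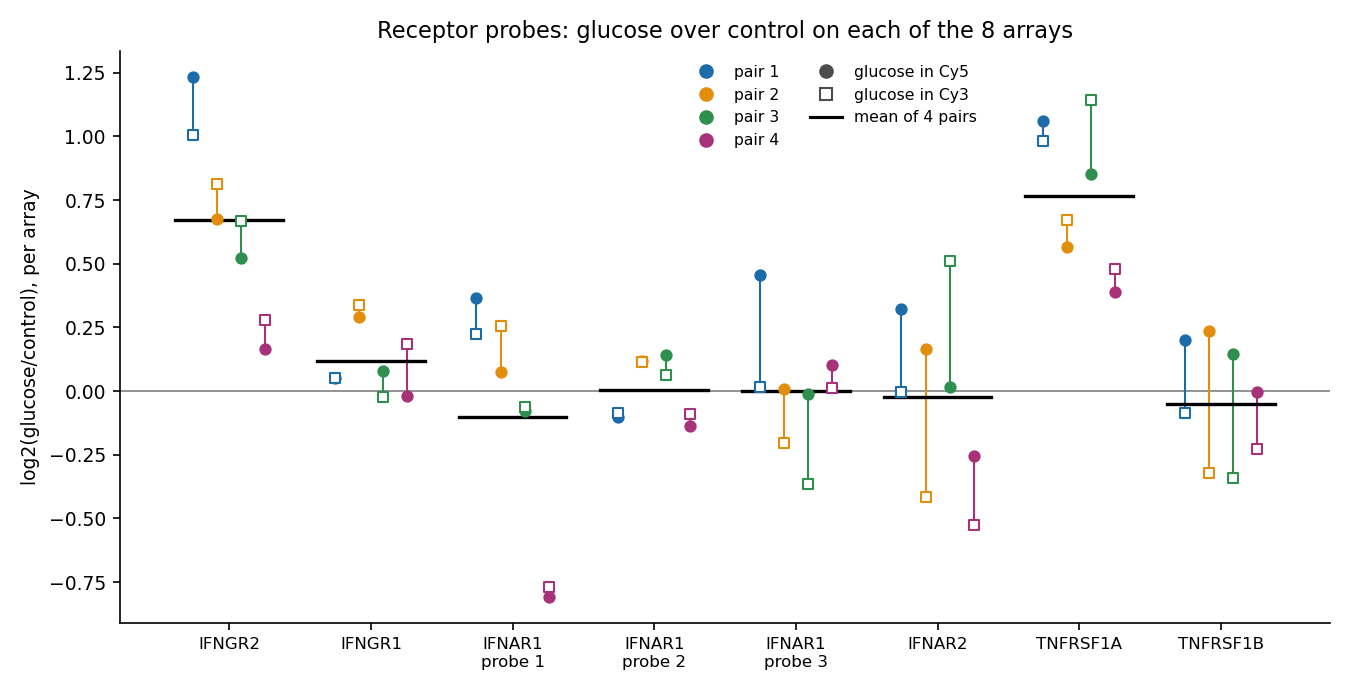
Log2(glucose/control) of each receptor probe on each of the 8 arrays, with colours for the 4 pairs of pools, filled circles for glucose in Cy5, open squares for glucose in Cy3, a thin line joining the 2 arrays of a pair, and black bars for the mean of the 4 pairs. IFNGR2 and TNFRSF1A lie above 0 on all 8 arrays, and TNFRSF1B changes side with the dye in pairs 1 to 3.

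TNFRSF1A, the TNF receptor with a death domain, was also brighter in the glucose pool of every pair. Its ratios were 1.02, 0.62, 1.00 and 0.43 in pairs 1 to 4, with a mean of 0.77 ± 0.29, or 1.70-fold. All 8 arrays lay above 0, with a mean of 0.72 with glucose in Cy5 and 0.82 with glucose in Cy3. Before normalization the glucose channel was brighter on 7 of 8 arrays, again with the exception of the pair 4 array with glucose in Cy5. With the median in place of the mean spot intensity the ratio was 0.58.

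TNFRSF1A also varied between pairs within each group. The levels were 9.61, 8.35, 9.78 and 8.44 in the glucose pools and 8.58, 7.73, 8.78 and 8.01 in the control pools of pairs 1 to 4. Pairs 1 and 3 were high in both groups, and their control pools lay above the glucose pools of pairs 2 and 4. Both levels of a pair were read on the same arrays, so differences of arrays and of pools cannot be told apart here. The SD between pools was 0.75 in the glucose group and 0.49 in the control group, the groups overlap, and only the comparison within pairs separates them.

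TNFRSF1B, the TNF receptor of immune cells, was near the floor. Its ratios were 0.06, -0.04, -0.10 and -0.11, with a mean of -0.05 ± 0.08. Its signal passed the detection limit on only 4 arrays, each of them from array set 056, with 3 glucose channels and 4 control channels over it. The mean was 0.14 with glucose in Cy5 and -0.24 with glucose in Cy3, and the 3 arrays above 0 all had glucose in Cy5. At this brightness a difference was not detectable, which is not the same as no difference.

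**Figure D2:**
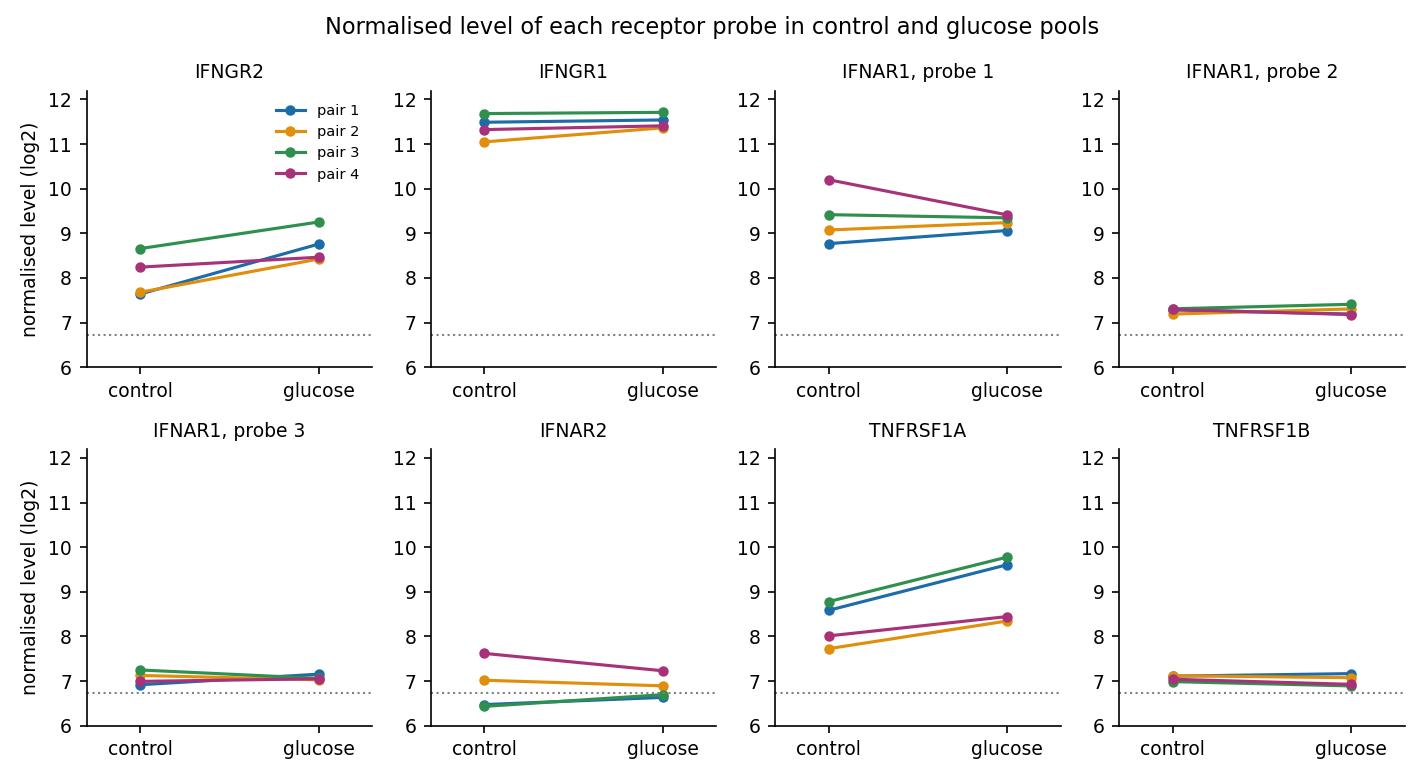
Normalised log2 level of each receptor probe in the control and glucose pools, each line joining the 2 pools of a pair, with the dotted line at the median of the negative control spots. The glucose end is the higher one in each of the 4 pairs for IFNGR2 and TNFRSF1A, and TNFRSF1A starts from 8.58 and 8.78 in pairs 1 and 3 against 7.73 and 8.01 in pairs 2 and 4.

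The type I interferon receptor showed no shift shared by the pairs. IFNAR1, the chain that engages TYK2, had ratios of 0.29, 0.17, -0.07 and -0.79 at its brightest probe, with a mean of -0.10 ± 0.48. Pairs 1 and 2 were above 0 and pairs 3 and 4 below, and the arrays of pair 4 were both low, at -0.77 and -0.81. The IFNAR1 level in control pools was 8.77, 9.07, 9.42 and 10.2, and in glucose pools 9.06, 9.24, 9.35 and 9.41. The control pool of pair 4 stood highest and the glucose pools lay close together.

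The other 2 probes of IFNAR1 gave means of 0.0024 ± 0.12 and 0.0023 ± 0.19, with pair 4 at -0.11 and 0.06. The 3 probes therefore disagree on pair 4. The second brightest probe had levels from 7.18 to 7.41 and passed the detection limit in 7 glucose and 8 control channels. The dimmest had levels from 6.92 to 7.25 and passed in 5 and 6. Near the negative controls the offset added before the log shrinks ratios, and its part in the disagreement was not tested. Which transcripts each probe matches was not tested.

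IFNAR2, the chain that gives the type I receptor its high affinity, had ratios of 0.16, -0.13, 0.26 and -0.39, with a mean of -0.02 ± 0.29. The 2 arrays of a pair differed by 0.27 to 0.58, while the pair values ran from -0.39 to 0.26. Its levels lay between 6.63 and 7.23 in glucose pools and between 6.43 and 7.62 in control pools, around the negative controls. Before background subtraction, 7 glucose channels and 6 control channels were over the detection limit. Local Cy5 background at the IFNAR2 spot was 47 to 129 over the 8 arrays, against 35 to 47 at the IFNGR2 spot.

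In the RefSeq annotation of the assembly ARS-UCD2.0, IFNGR2, IFNAR1, IL10RB and IFNAR2 are consecutive protein-coding genes, with TMEM50B on the other side of IFNGR2. IL10RB encodes the shared second chain of the interleukin 10 and interferon lambda receptors. Its ratios were 0.10, 0.03, 0.20 and -0.89 at its brightest probe, with a mean of -0.14 ± 0.50 (limma, adjusted p = 0.977), and the highest of its 3 probes gave 0.02. Like the brightest IFNAR1 probe, IL10RB was low in pair 4, where IFNGR2 was at 0.22. TMEM50B had ratios of 0.02, 0.23, -0.80 and 0.74 and a mean of 0.05 ± 0.64. The 5 neighbouring genes thus had different values within the same pair. Genes near TNFRSF1A gave 0.13 ± 0.21 for the sodium channel subunit SCNN1A, -0.22 ± 0.38 for the lymphotoxin beta receptor LTBR and 0.20 ± 0.65 for the tetraspanin CD9, which was at 1.02 in pair 4. Of the 3 genes 0 passed the test.

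**Figure D3:**
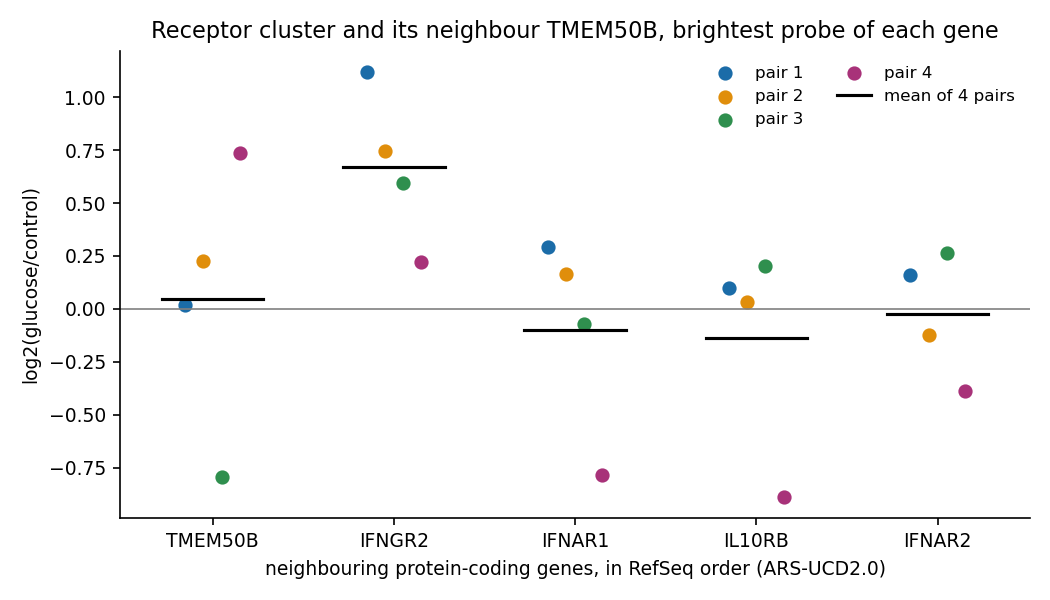
Log2(glucose/control) of the brightest probe of 5 neighbouring genes in the 4 pairs of pools, with black bars for the means. IFNGR2 lies above 0 in every pair, and IFNAR1 and IL10RB lie at -0.79 and -0.89 in pair 4.

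Of the 6 receptors, 3 had a brightest probe above 0 in all 4 pairs (IFNGR2, IFNGR1 and TNFRSF1A), against 5.19% of all probes tested. With a mean of at least 1.5-fold as well, IFNGR2 and TNFRSF1A were 2 of 35 such genes, 0.278% of named genes, and by size TNFRSF1A ranked 16 and IFNGR2 24 among them. The receptors were chosen on this contrast, so nothing is read from these counts. Over all named genes tested the median ratio was 0.0057, with 6575 above 0.

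Markers of mesenchymal cells were, by their median, high in the glucose pools of pairs 1 and 3. Of 15 listed markers 14 were tested, and their median ratio was 0.68, -0.07, 1.14 and -0.14 in pairs 1 to 4. Their summed linear signal was 28729, 10787, 49014 and 11469 in the glucose pools and 14826, 9393, 13494 and 15008 in the control pools. The intermediate filament gene VIM had 2.26, 0.30, 2.85 and -0.12, and the matrix gene LUM had 1.79, -0.24, 4.53 and 1.53. These 2 had the highest mean ratios of the 14. The mean was above 0 for 12 of the 14 and below 0 for COL1A1 and TAGLN. COL1A1 had -0.04, -0.10, 0.17 and -0.32, and TAGLN had -0.10, -0.08, -0.03 and -0.15. PDGFRA was at -0.46 in pair 1 and 1.03 in pair 3. In the same pairs IFNGR2 had 1.12, 0.74, 0.60 and 0.22, and TNFRSF1A had 1.02, 0.62, 1.00 and 0.43. Whether mesenchymal cells bear on the receptor ratios was not tested.

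The 10 tested markers of blastocyst lineages had a median ratio of 0.0003, 5 above 0 and 5 below. Their median was 0.07, 0.01, -0.14 and 0.14 in pairs 1 to 4. Single markers differed more, with NANOG at -1.94 in pair 1, and KRT8 at -1.27 and TFAP2C at 0.80 in pair 4. For markers of cumulus and granulosa cells, 9 of them tested, the median was 0.14, with 0.05, -0.03, 0.21 and -0.08 in the pairs. Of 11 leukocyte and macrophage markers 5 were tested, with a median of -0.02, and ITGAM, ITGB2, CSF1R, LYZ and TYROBP did not pass the filter. The summed linear signal of those tested was 981 to 1433 in glucose pools and 1019 to 1222 in control pools. The median for 4 tested genes of red blood cells was 0.15, and the globin HBG was at 0.22 ± 0.14. The part of any of these cells in the receptor ratios was not tested.

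**Figure D4:**
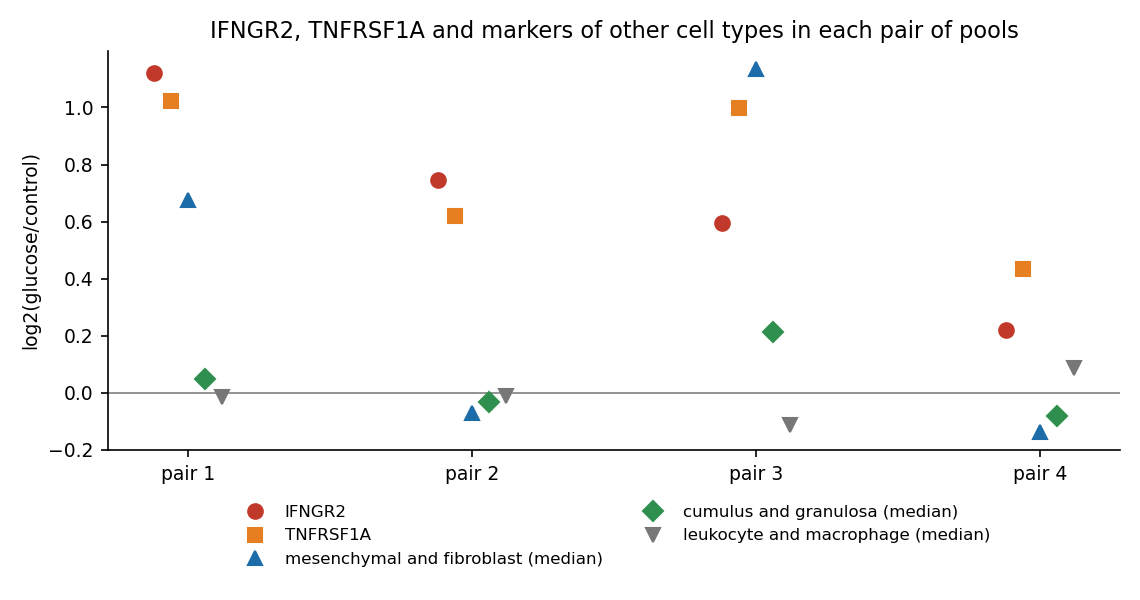
Log2(glucose/control) of IFNGR2 and TNFRSF1A and the median over 3 lists of cell type markers in each pair of pools. The mesenchymal median is 0.68 and 1.14 in pairs 1 and 3 and below 0 in pairs 2 and 4. Both receptors are above 0 in every pair, and a link between the markers and the receptors was not tested.

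The named genes closest to IFNGR2 in their 4 ratios, by the root mean square difference over the pairs, were BMP6 (0.17), CDO1 (0.18), TNFRSF1A (0.24), CRYAB (0.24) and DST (0.26). BMP6, a bone morphogenetic protein, had ratios of 0.97, 0.53, 0.51 and 0.02. CDO1, cysteine dioxygenase, had 0.83, 0.64, 0.45 and 0.11, and both were highest in pair 1 and lowest in pair 4, as IFNGR2 was.

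Closest to TNFRSF1A were C6H4ORF31 (0.11), CLU (0.22), CNRIP1 (0.23), CRYAB (0.23) and IFNGR2 (0.24). C6H4ORF31 had 0.92, 0.45, 0.93 and 0.52, with the same high values in pairs 1 and 3. The secreted chaperone clusterin (CLU) had 0.80, 0.46, 0.71 and 0.64, and the small heat shock protein CRYAB had 0.67, 0.68, 0.76 and 0.27. The genes close to either receptor were picked by these same ratios, so shared highs and lows follow from that choice. Likeness over 4 pairs is a description of these arrays only.

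Ligands of the interferon and TNF families, some of which bind receptors other than these, were mostly dim. Of 24 listed interferon and TNF family ligands, 19 were on the array by symbol and 9 were tested, and IFNG, IFNB1 and TNF itself did not pass the filter on low values. The 9 had a median ratio of -0.0032, 4 above 0 and 5 below, and 0 passed in either direction. Interferon tau (IFNT) had 0.81, 0.88, -1.74 and 0.56, and interferon omega (IFNW1) had 0.51, 1.55, -1.11 and 0.60. Both were low in the glucose pool of pair 3 and high in the others, as was TNFSF9, the ligand of a T cell costimulatory receptor, with 0.57, 0.42, -1.25 and 0.51. LTA had -0.09 ± 0.51. IFNT, TNFSF9, LTA and IFNW1 were not dim, with mean levels of 14.4, 11.2, 9.76 and 8.43 in glucose pools. Of the ligands with the lowest p, LTB, a lymphotoxin chain, had 0.08 ± 0.09, FASLG -0.07 ± 0.10 and TNFSF8 -0.06 ± 0.06, all at a low signal.

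Kinases and STATs below the interferon receptors gave 0 calls among 10 tested genes, 4 above 0 and 6 below, with a median of -0.02. JAK2, the kinase that IFNGR2 binds, had 0.07 ± 0.05 and was above 0 in 4 of 4 pairs by at most 0.12. JAK1 had -0.02 ± 0.18 and TYK2 had -0.08 ± 0.35. STAT2, part of the factor that type I interferon activates, had 0.23, 0.17, 0.29 and -1.07. STAT3 had -0.21, -0.18, -0.06 and -1.05, a mean of -0.37 ± 0.45 and below 0 in every pair at its brightest probe. Pair 4 thus stood low for STAT2, STAT3, IL10RB and the brightest IFNAR1 probe. STAT4 had 0.38 ± 0.31, STAT6 had 0.13 ± 0.10, and IRF9, the partner of STAT2, had 0.07 ± 0.10 at a signal over the controls in 4 glucose and 2 control channels.

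Inhibitors of interferon signalling had a median of 0.04 over 15 tested genes, 9 above 0 and 6 below, and 0 passed. SOCS1, which blocks the kinases of the interferon gamma receptor, had 0.05, -0.24, 0.52 and -0.96. The phosphatase PTPN11 had -0.09 ± 0.08 and was below 0 in 4 of 4 pairs, and the STAT3 inhibitor PIAS3 had 0.21 ± 0.33. SOCS6 had -0.11 ± 0.11 at a low signal, over the controls in 3 glucose and 4 control channels. SOCS3 did not pass the filter on low values.

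Genes that interferon gamma is known to induce had a median of -0.0040 over 20 tested members, 10 above 0 and 10 below, and 0 passed. IRF1, its first transcription factor target, had -0.02 ± 0.04, with no pair beyond 0.05 on either side. The peptide transporter subunit TAP2 had 0.28 ± 0.08 and was above 0 in 4 of 4 pairs, but its dimmer probe gave -0.04. TAPBP, tapasin, had 0.79, 0.28, 0.78 and -0.42. BOLA, a class I antigen name that a family of near-identical genes may share, had -0.61 ± 0.43 at its brightest probe, whereas the highest of its 3 probes gave 0.33, so its direction is uncertain.

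Adaptors and death signalling genes below TNFRSF1A had a median of -0.0026 over 25 tested members, 12 above 0 and 13 below, and 0 passed. TRADD, the first adaptor, had 0.52, 0.22, -0.02 and 0.19, a mean of 0.23 ± 0.22. CASP8, the initiator caspase, had 1.24, 0.72, 0.40 and -0.38, a mean of 0.49 ± 0.68 (limma, adjusted p = 0.977). RBCK1, a subunit of the linear ubiquitin ligase, had 0.23 ± 0.18. The adaptors FADD and TRAF2 and the kinase RIPK1 had -0.15 ± 0.31, 0.01 ± 0.14 and -0.0026 ± 0.16.

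The NF-kB module had a median of 0.02 over 18 tested genes, 14 above 0 and 4 below, and 0 passed. RELA, its main activating subunit, had 0.18 ± 0.19 and was above 0 in 4 of 4 pairs, with 0.46 in pair 1 and at most 0.11 in the others. The inhibitor NFKBIA, which is both part of the module and one of its targets, had 0.13 ± 0.24, NFKBIZ had 0.12 ± 0.18, and NFKB1 had 0.08 ± 0.30. TNFAIP3, a target of NF-kB that shuts it off, did not pass the filter on low values.

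Genes that TNF is known to induce had a median of 0.04 over 20 tested members, 15 above 0 and 5 below, and 0 passed. FOS had 0.38 ± 0.38, with 0.93 in pair 1 and at most 0.32 in the others, and its second probe gave -0.0016. TNFAIP6 had 0.19 ± 0.33. The highest mean of the list was that of PTGS2, 0.52 ± 1.44, with 2.60 in pair 4 and 2 of 4 pairs above 0. Of 29 listed genes 20 were tested, and the chemokine CCL2 was among those that did not pass the filter.

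Other receptors of the 2 families varied around 0. The TNF receptor family had a median of 0.02 over 16 tested genes, 9 above 0 and 7 below. EDAR was at -0.13 ± 0.09, TNFRSF19 at 0.19 ± 0.31 and TNFRSF6B at 0.07 ± 0.03. TNFRSF6B had a low signal, over the controls in 3 glucose and 3 control channels. The class II cytokine receptors had a median of 0.0032 over 7, with IL20RB at 0.20 ± 0.27 (1 of its 4 probes above 0) and the tissue factor gene F3 at 0.15 ± 0.37. Shedding and trafficking genes had a median of 0.02 over 11. ADAM17, the protease that sheds TNF and its receptors, had 0.15 ± 0.30. ERAP1, an aminopeptidase reported in human cells to promote TNFRSF1A shedding, had 0.26 ± 0.08 and was above 0 in 4 of 4 pairs, the regulator RHBDF2 had -0.07 ± 0.05, and BTRC had 0.15 ± 0.12. Among the genes of these 3 lists 0 passed the adjusted threshold.

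**Figure D5:**
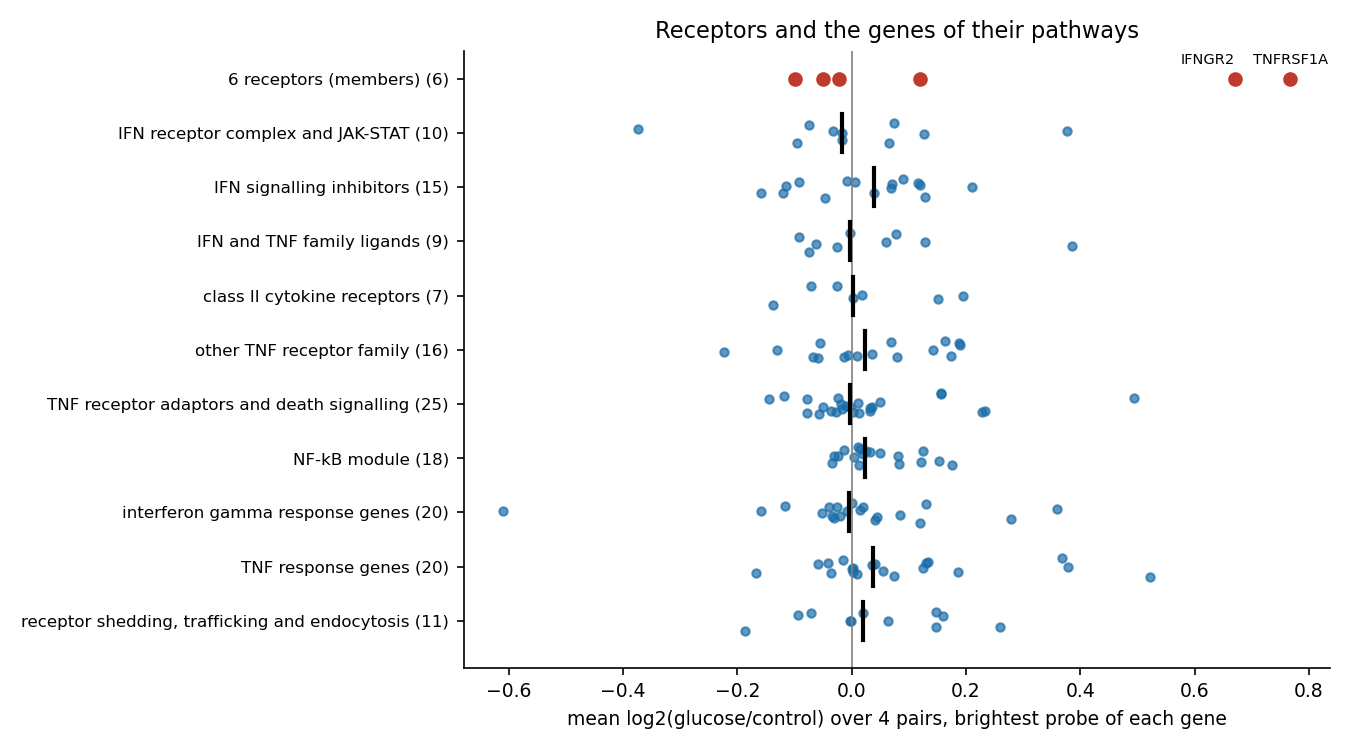
Mean log2(glucose/control) over the 4 pairs for the brightest probe of each of the 6 receptors (red) and of each tested gene of 10 pathway lists (blue), with black bars for list medians and the number of genes in brackets. List medians lie between -0.02 and 0.04, and IFNGR2 and TNFRSF1A lie at 0.67 and 0.77.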

How the data were processed

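Total RNA of pooled blastocysts was amplified in 2 rounds and labelled with Cy3 and Cy5, per the labels' protocols. The deposited scanner tables give spot and background intensity per channel, not normalized, per the file headers. Among tools, limma is listed per the submitters' processing notes, and the scanner software is not stated. The authors' deposited series table holds a score per probe with no stated unit. It was read as log2 glucose signal over log2 control signal, an inference, and rank correlations with the scanner ratios were 0.981 to 0.996 across brighter probes. Its column medians were 0.9985, 0.9992, 0.9996, 0.9999, 0.9993, 0.9981, 0.9990 and 1.0000, and its normalization stays unknown.

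Mean intensities were background-corrected (normexp on median background, offset 50) and loess-normalized within arrays in R 4.3.3 with limma 3.58.1, control spots at weight 0. Each array's log ratio was signed as glucose over control, and the mean of the 2 same-numbered arrays is a pair's value. Levels are per channel after loess and Aquantile scaling of mean brightness. A probe was tested when either channel passed the mean plus 2 SD of 153 negative control spots on 4 or more arrays. The test was lmFit and eBayes on 4 ratios against 0, 2-sided, with Benjamini-Hochberg adjustment. It was tested on simulated data.

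Same-numbered arrays were taken as a dye swap of the same pools: after removal of the dye effect they correlated at 0.733, 0.773, 0.846 and 0.912, each above any other pairing (at most 0.214). Nothing says that the pools came from separate ovary batches, so p-values measure only the spread between these pools.

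Members and lists were chosen with earlier results of these data known. Named genes are the members, a set of core pathway genes where tested, the 3 of lowest p per list, and the 5 genes closest to IFNGR2 and to TNFRSF1A. Neighbours of the receptors, lineage and mesenchymal markers, HBG, TNFSF9, IFNT, IFNW1, LTA, PTGS2, SCNN1A, LTBR and CD9 were named after their values were seen. A gene's value is its brightest probe's. Gene names are those of the array annotation. The alternatives tried were other background, intensity and normalization choices, single array sets, array weights, block fits, other filters, the authors' values and leaving out pairs.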

Additional observations from a re-analysis of the deposited data

Results flagged for a closer look

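Of 99 sets of 4 values examined, 81 were ratios or list medians and 18 were levels, and 9 had 1 value lying far from the others. A rate of about 1 set in 20 by chance holds only for independent sets fixed in advance. These sets share genes, since list medians include genes also examined singly. Some genes, IFNT and TNFSF9 among them, were named after their values were seen. Nothing is therefore read from the number of such sets. None of the 9 was a receptor probe of the 6 genes. In 5 of the 9 it was pair 4. These were STAT2 at -1.07, STAT3 at -1.05, IL10RB at -0.89, the median of the JAK and STAT list at -0.15 and the median of the class II cytokine receptors at -0.15. Pair 3 stood apart for IFNT at -1.74 and for TNFSF9 at -1.25. Pair 1 stood apart for RELA at 0.46 and for BOLA at 0.026. Ratios varied most in pair 4 over all probes tested, with an SD of 0.431 against 0.195, 0.209 and 0.237 in pairs 1 to 3. The cause was not tested.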

How the results depend on the processing

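Under the alternatives run, the ratio was between 0.48 and 0.90 for IFNGR2 and between 0.53 and 0.90 for TNFRSF1A. Both genes were chosen on this ratio and lay above 0 on all 8 arrays. Leaving out pairs, single array sets and array weights only average those values, so they could not give a ratio below 0. Leaving out each pair in turn gave 0.52 to 0.82 and 0.68 to 0.88. The lowest values, 0.48 and 0.53, came from pairs 2 and 4 only, an alternative chosen after seeing the data. IFNGR1 ranged from 0.05 (without pair 2) to 0.20, IFNAR1 from -0.31 to 0.14 and IFNAR2 from -0.26 to 0.12, so the last 2 had no settled sign. TNFRSF1B moved to -0.13 without the offset and to 0.081 with median spot intensity, and the cause was not tested. With array number as a replicate block over 8 arrays 0 probes passed, with a lowest adjusted p of 0.330. Without the block 0 passed, with a lowest of 0.0661, and 0 passed under the other alternatives run. The number at an unadjusted p under 0.05, 780 as reported, was 358 in array set 056 alone, 413 in set 047 alone, 412 with median centring, 492 over probes above background on all 8 arrays, 2056 with array weights and 2711 with the 8 arrays taken as independent. Without pair 1, 2, 3 or 4 it was 478, 631, 1358 or 1681. The list medians moved by less than their spread between pairs in all but 4 cases, where the class II cytokine receptors went to 0.11 without pair 4 and to -0.11 over pairs 2 and 4, and the interferon gamma response genes to 0.02 and -0.04. The number of arrays and signal over background limit what IFNAR2, TNFRSF1B and the dimmer IFNAR1 probes can show.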
